A study of Mus musculus with 6 samples.

Results

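The NADPH oxidase and dual oxidase genes of the mouse gut wall were taken as a list of 9 genes: Nox1, Noxo1, Noxa1, Duox2, Duoxa2, Cyba, Cybb, Ncf1 and Ncf4. Each gene was matched to the array through probe sets whose annotation gave exactly 1 gene symbol, and the probe set with the highest mean over the arrays stood for the gene. In this way 6 of the 9 genes were measured, among 18193 genes in all: Noxo1, Duoxa2, Cyba, Cybb, Ncf1 and Ncf4. In the annotation used, no probe set carried Nox1, Noxa1 or Duox2 as its symbol, and these 3 genes were not analysed here.

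Expression was measured in distal jejunum of 3 control mice and 3 mutant littermates at 7 months of age, with 1 Affymetrix array per mouse. In the mutants, conditional deletion of Hnf4a, which encodes a nuclear receptor of gut and liver epithelium, was driven in the intestinal epithelium by a Cre transgene under a 12.4 kb Villin promoter. All 6 mice carry the strain label B6.129X1(FVB)-Hnf4atm1.1Gonz/J, were kept pathogen free and received ketamine and xylazine (300 and 40 mg/kg) before they were killed. The strain label and the titles name the Hnf4a allele (fx in the titles) and VilCRE for controls as for mutants. They do not give the genotype of each control, so its allele copies and Cre status are unknown. The RNA came from biopsies of whole jejunum, so that muscle, stroma and immune cells, in which Villin-Cre is not active, contributed to every value. The series title links the gene to reactive oxygen species, and the comparison bears on genes whose products make them.

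NADPH oxidases move electrons from NADPH across a membrane onto oxygen. The catalytic protein of Nox1 works in the gut epithelium with a membrane partner encoded by Cyba, an organizer encoded by Noxo1 and an activator encoded by Noxa1. Phagocytes use the catalytic protein of Cybb with the same Cyba product and with cytosolic subunits that include the products of Ncf1 and Ncf4. Dual oxidases release hydrogen peroxide at the apical surface of epithelium, and reach the membrane only with a maturation factor, which for Duox2 is the product of Duoxa2.

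Hnf4a itself fell in the mutants, with a log2 signal of 11.8, 11.8 and 11.6 in controls and 8.83, 8.83 and 9.82 in mutants (limma, adjusted p = 0.00756). The call was lost without control 2 (adjusted p = 0.0506), with control 3 and mutant 2 both left out (adjusted p = 0.20) and with low values raised to the 20th percentile (adjusted p = 0.127), at log2 differences of -2.53, -2.47 and -2.56. Where its probe set lies relative to the deleted exons was not determined, so the signal left in mutants does not measure the deletion. Over all genes, 96 changed at an adjusted p under 0.05, which is 0.528% of the 18193 tested. Epithelial transcripts were plentiful on every array: 11 of 11 epithelial markers lay above the median probe set of every array and their mean log2 signal was 11.78 to 11.83 in controls and 11.83 to 12.06 in mutants. Control 3 carried pancreatic acinar transcripts (mean log2 signal of 6 markers 7.80, against 3.83 to 4.06 on the other arrays), and mutant 2 carried fat transcripts (mean of 5 markers 8.18, against 6.41 to 6.76). Values without these 2 arrays together are given beside the oxidase genes.

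All 6 measured oxidase genes had a higher mean in the mutants, and none changed by the test over all genes. Limma called 0 of 6 at an adjusted p under 0.05, beside a background of 0.528% of all genes, made up of 0.198% called higher and 0.33% called lower. At an unadjusted p under 0.05 there were 4 of 6, namely Duoxa2, Cyba, Ncf1 and Ncf4, each higher in mutants. At that level stood 12.1% of all genes, made up of 5.24% higher and 6.85% lower. The median log2 difference of the 6 genes was 0.38, with a range from 0.14 to 0.71, and the median over all genes was -0.01. The 3 mutant values lay above the 3 control values in 3 of 6 genes, Cyba, Ncf1 and Ncf4, and in 6.93% of all genes. Without mutant 2 the count at an unadjusted p under 0.05 was 2, and without control 3 and mutant 2 together it was 1. An exact permutation test of 3 against 3 animals cannot go below p = 0.10, so for single genes only the limma fit was used.

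**Figure D1:**
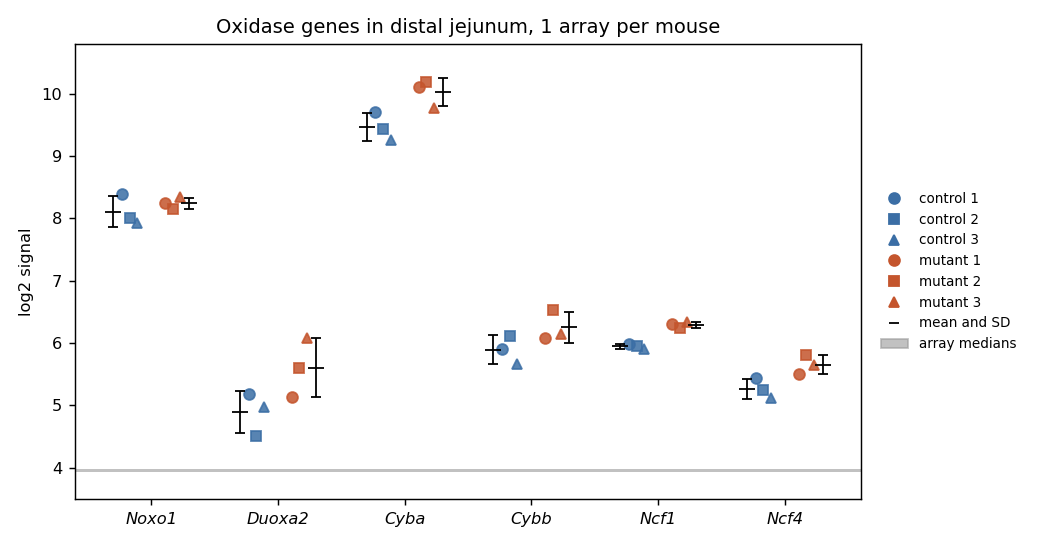
Log2 signal of the 6 measured oxidase genes on each of 6 arrays (vertical axis), with controls in blue and mutants in orange, the mean and SD of each group as black bars, and the range of array medians as a grey band. Mutant and control values are apart for Cyba, Ncf1 and Ncf4 and overlap for Noxo1, Duoxa2 and Cybb; signals of different probe sets cannot be ranked against each other.

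Of the epithelial genes, Duoxa2 showed the largest difference of the 6 and Noxo1 the smallest. Duoxa2 had a log2 signal of 5.18, 4.52 and 4.98 in controls and 5.14, 5.61 and 6.08 in mutants. Mutant 3 was the highest array, while mutant 1 lay within the control range, so the groups overlapped. Controls averaged 4.89 ± 0.34 (SD, n = 3) and mutants 5.61 ± 0.47 (SD, n = 3), a log2 difference of 0.71 ± 0.25 SE or 1.64-fold (95% interval 1.10 to 2.45-fold, limma adjusted p = 0.303). Its only probe set was moderately dim, at percentiles 56.9 to 72.8 of the array's signals. With single arrays left out, the difference ranged from 0.48 without mutant 3 to 0.95 without mutant 1, and it was 0.76 without control 3 and mutant 2 together (adjusted p = 0.737).

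Noxo1, the organizer that holds the epithelial Nox1 complex together, had a log2 signal of 8.39, 8.01 and 7.93 in controls and 8.25, 8.16 and 8.34 in mutants. All mutant values lay between the lowest and the highest control. The difference was 0.14 ± 0.14 SE (95% interval 0.880 to 1.37-fold, adjusted p = 0.778), so a change of more than 1.37-fold lay outside the interval. Without control 3 and mutant 2 together the difference was 0.09.

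The dual oxidase genes form a cluster in which Duox2 and Duoxa2 face away from each other. By the RefSeq windows of GRCm38.p6, their transcription starts are 673 bases apart on chromosome 2, and those of the neighbouring pair Duoxa1 and Duox1 are 1942 bases apart. The Duoxa2 window is printed because that gene differed most. It runs from 250 bases before the start to 50 after it (chr2:122298650-122298949, plus strand, GRCm38.p6), and capitals mark the letters TATAAA.
Duoxa2: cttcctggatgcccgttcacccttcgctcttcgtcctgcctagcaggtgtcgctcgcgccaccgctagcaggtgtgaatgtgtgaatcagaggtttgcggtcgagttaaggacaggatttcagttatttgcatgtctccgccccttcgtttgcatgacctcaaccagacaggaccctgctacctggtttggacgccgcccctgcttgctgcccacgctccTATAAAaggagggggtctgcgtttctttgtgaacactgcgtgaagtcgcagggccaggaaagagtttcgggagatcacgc
This match begins 30 bases before the start. The same letters, on either strand, were found in 13.6% of 32851 RefSeq windows of this length.

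Group means of the neighbouring pair lay close together. Duoxa1, the maturation factor gene of Duox1, had a log2 signal of 4.25 to 4.48 in controls and 4.25 to 4.49 in mutants (difference 0.01 ± 0.12 SE, adjusted p = 0.993). Duox1 itself lay under the median probe set of every array, at 3.03 to 3.28 in controls and 2.92 to 3.27 in mutants (difference -0.14 ± 0.13 SE, adjusted p = 0.752), close to background, so that its level is uncertain. Whether the difference of Duoxa2 exceeded those of its neighbours was not tested.

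Cyba, the membrane partner shared by the epithelial and the phagocyte enzyme, had the second largest difference. Its log2 signal was 9.71, 9.43 and 9.26 in controls and 10.11, 10.19 and 9.78 in mutants. The groups did not overlap, although mutant 3 lay just above control 1. Means were 9.47 ± 0.23 (SD, n = 3) and 10.03 ± 0.22 (SD, n = 3), a log2 difference of 0.56 ± 0.16 SE or 1.48-fold (95% interval 1.15 to 1.89-fold, adjusted p = 0.201). Without control 3 and mutant 2 together the difference was 0.37 (adjusted p = 0.737). Because Cyba is expressed in epithelium and in leukocytes alike, and the tissue was measured whole, more cells of a type and more RNA per cell cannot be told apart here or in the genes that follow.

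The promoter window of Cyba is shown because this gene had the largest difference among those with separate groups (chr8:122432891-122433190, minus strand, GRCm38.p6), with the GATA letters AGATAA in capitals where they occur on the opposite strand.
Cyba: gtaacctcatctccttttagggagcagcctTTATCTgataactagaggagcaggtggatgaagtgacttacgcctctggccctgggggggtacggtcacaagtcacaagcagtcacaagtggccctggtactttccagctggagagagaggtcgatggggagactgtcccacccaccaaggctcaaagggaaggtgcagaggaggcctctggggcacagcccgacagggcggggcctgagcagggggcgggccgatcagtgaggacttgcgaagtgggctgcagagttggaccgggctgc
The match begins 220 bases before the start, and 11.2% of all windows hold these letters on either strand.

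The mean of each phagocyte subunit gene lay higher in mutants, by similar amounts. Ncf1 encodes the cytosolic organizer of the phagocyte enzyme. Its log2 signal was 5.99, 5.96 and 5.90 in controls and 6.31, 6.24 and 6.33 in mutants. The groups were apart by more than the spread within either group. The difference was 0.34 ± 0.09 SE or 1.27-fold (95% interval 1.09 to 1.47-fold, adjusted p = 0.191), the smallest adjusted p of the 6 genes. Without control 3 and mutant 2 together it was 0.35 (adjusted p = 0.664). Of its other 2 probe sets, the second brightest differed by 0.31 and the dimmest, which read under the array medians, by 0.07, and neither was called when every probe set was tested (adjusted p = 0.532 and 0.925, with 0.193% of all probe sets called).

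Ncf4, a further cytosolic subunit, which binds a phosphoinositide lipid, had a log2 signal of 5.43, 5.24 and 5.11 in controls and 5.50, 5.82 and 5.65 in mutants. Mutant 1 lay just above control 1, and the groups did not overlap. The difference was 0.39 ± 0.13 SE or 1.31-fold (95% interval 1.07 to 1.61-fold, adjusted p = 0.270). Without control 3 and mutant 2 together it was 0.24 (adjusted p = 0.794).

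Cybb, the catalytic subunit of phagocytes, had a log2 signal of 5.90, 6.12 and 5.66 in controls and 6.08, 6.53 and 6.15 in mutants. Mutant 2, the array with fat transcripts, was the highest, and control 2 lay above mutant 1. The difference was 0.36 ± 0.16 SE or 1.28-fold (95% interval 0.988 to 1.66-fold, adjusted p = 0.439). It was 0.22 without mutant 2 and 0.10 without control 3 and mutant 2 together. A second Cybb probe set differed by 0.33 (adjusted p = 0.562 over all probe sets), and the dimmest, under the array medians, by -0.14 (adjusted p = 0.882). With the mean of the 3 probe sets the gene's difference was 0.18.

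Promoter windows of Ncf1 (chr5:134229576-134229875) and Cybb (chrX:9469275-9469574), both minus strand and GRCm38.p6, are set side by side as those of phagocyte subunit genes. Ncf4, the further such gene, had no window. Capitals mark matches on either strand to the paired interferon regulatory factor half-site GAAANNGAA, the STAT letters TTCNNNGAA, the NF-kB letters GGGNNTTCC and the GATA letters AGATAA.
Ncf1: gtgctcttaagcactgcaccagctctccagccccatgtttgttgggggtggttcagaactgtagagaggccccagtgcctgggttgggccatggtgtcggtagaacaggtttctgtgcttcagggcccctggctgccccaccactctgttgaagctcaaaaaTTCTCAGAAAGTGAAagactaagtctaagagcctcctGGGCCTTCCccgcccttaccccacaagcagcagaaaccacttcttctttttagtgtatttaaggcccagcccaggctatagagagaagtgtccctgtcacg
Cybb: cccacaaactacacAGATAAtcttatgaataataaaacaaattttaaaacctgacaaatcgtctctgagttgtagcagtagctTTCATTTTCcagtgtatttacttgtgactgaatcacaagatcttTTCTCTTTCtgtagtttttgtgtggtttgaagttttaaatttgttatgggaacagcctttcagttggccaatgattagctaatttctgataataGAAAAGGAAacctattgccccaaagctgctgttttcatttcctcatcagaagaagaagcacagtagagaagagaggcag
In Ncf1 the STAT match begins 88 bases before the start and overlaps the interferon regulatory factor match, which begins 82 bases before it, while the NF-kB match begins 51 bases before it. Cybb holds 3 matches to the half-site, beginning 167, 123 and 29 bases before the start, and a GATA match 236 bases before it. The half-site occurred in 8.56% of all windows, the STAT letters in 8.30%, the NF-kB letters in 5.82% and the GATA letters in 11.2%. The letters CAAAGTCCA, a form of the HNF4 site, and the shorter CAAAGTCC within it were found in 0.475% and 1.42% of all windows and in none of the 8 windows that matched a listed gene. The PU.1 letters GAGGAAG and the CDX letters TTTATGG (13.6% and 2.75% of all windows) occurred among these 8 only in that of Nox1. A match of letters describes the sequence and shows no binding, and a window without these exact letters may hold another form of the site.

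**Figure D2:**
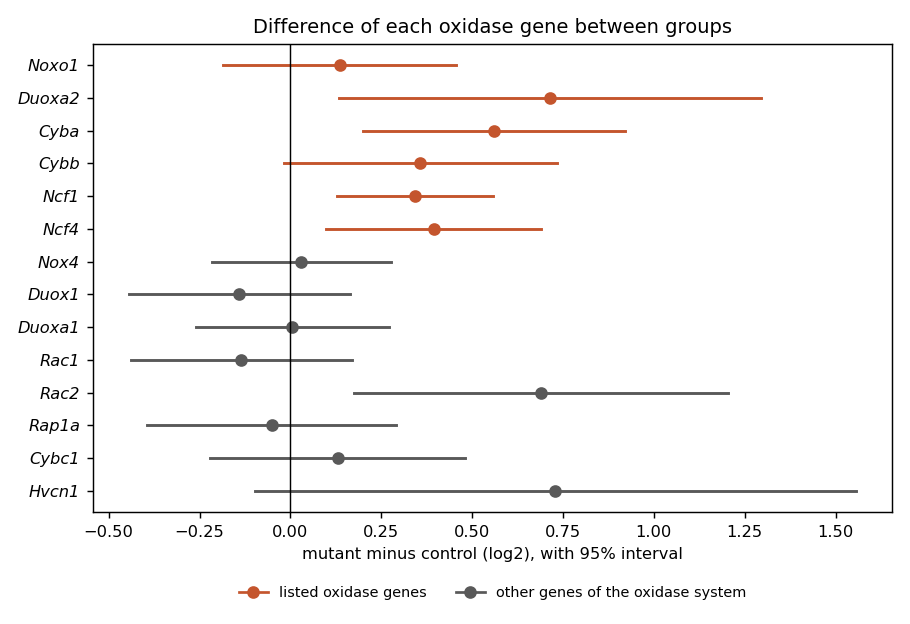
Log2 difference between mutant and control means (horizontal axis) with its 95% interval from limma, for the 6 measured oxidase genes (orange) and 8 other genes of the oxidase system (grey). Intervals of Duoxa2, Cyba, Ncf1, Ncf4 and Rac2 lie above 0, and no gene shown passed the test over all genes.

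Another 8 genes of the oxidase machinery were measured, of which 0 were called by limma in either direction, and the median difference was 0.02. At an unadjusted p under 0.05 there was 1 of 8, beside 12.1% of all genes. The gene past that level was Rac2, the small GTPase of blood cells that switches the phagocyte enzyme on. Its log2 signal was 6.86, 6.02 and 6.13 in controls and 7.01, 7.25 and 6.83 in mutants (difference 0.69 ± 0.22 SE, adjusted p = 0.268), with control 1 among the mutants. Its other probe set, which read under the array medians, differed by 0.06, and the mean of both gave 0.37. Unadjusted p rose above 0.05 without control 2, control 3 or mutant 2 and without control 3 and mutant 2 together, where the difference was 0.48. Hvcn1, the proton channel that balances the charge moved by the oxidase, read 6.82, 5.49 and 5.22 in controls and 6.57, 6.56 and 6.59 in mutants. Control 1 was the highest array of all, and the difference was 0.73 ± 0.36 SE (adjusted p = 0.481). It was 1.22 without control 1, where it passed the test (adjusted p = 0.0248). It was 0.42 without control 3 (adjusted p = 0.840), and 0.42 again when mutant 2 was left out too (adjusted p = 0.882).

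The ubiquitous GTPase gene Rac1 differed by -0.13 ± 0.13 SE, Rap1a, a GTPase found with the membrane subunits, by -0.05 ± 0.15 SE, and Cybc1, which encodes a chaperone of the Cybb and Cyba products, by 0.13 ± 0.15 SE (adjusted p = 0.764, 0.937 and 0.813). The groups overlapped in each of these 3 genes. Nox4, an oxidase of stroma and kidney, read 2.52 to 2.55 in controls and 2.46 to 2.73 in mutants, under the median probe set of every array (difference 0.03 ± 0.11 SE, adjusted p = 0.949).

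Among regulators of the oxidases, 0 of 23 measured genes were called in either direction by limma, and the median difference was 0.13. At an unadjusted p under 0.05, 6 were higher and 3 lower, beside 5.24% and 6.85% of all genes. Tlr4, the lipopolysaccharide receptor, read 4.11, 4.08 and 4.01 in controls and 4.58, 5.07 and 5.46 in mutants (difference 0.97 ± 0.20 SE, adjusted p = 0.0964). Vav1, an exchange factor for Rac in blood cells, differed by 0.77 ± 0.16 SE (adjusted p = 0.104), and Sh3pxd2b, an adaptor related to the organizer subunits, by 0.70 ± 0.17 SE (adjusted p = 0.142). Genes that use, remove or transport hydrogen peroxide or superoxide had a median difference of -0.12, with 0 of 11 called and 1 lower at an unadjusted p under 0.05. That gene was Cat, the catalase of peroxisomes, with a log2 signal of 9.42, 9.89 and 9.84 in controls and 9.20, 9.10 and 8.66 in mutants (difference -0.73 ± 0.18 SE, adjusted p = 0.155). Sod2, the mitochondrial superoxide dismutase, differed by -0.22 ± 0.11 SE and the peroxiredoxin gene Prdx2 by -0.18 ± 0.11 SE, and in both the groups overlapped. Of the 11 genes, 4 had a higher mutant mean, with a highest difference of 0.39, and 3 lay under the median probe set of every array.

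Epithelial genes known to be induced by microbes together with Duox2 were listed as well, with 1 of 20 called higher, 0 lower and 19 not past the test. At an unadjusted p under 0.05, 9 were higher and 1 lower, and the median difference was 0.42. The gene called was Retnlb, a goblet cell peptide with antimicrobial action (difference 5.43 ± 0.45 SE, adjusted p = 0.00533), whose control values of 3.13 to 3.79 lay under the array medians. Its call held whichever single array was left out. It was lost with low values of all genes raised to the 20th percentile (limma adjusted p = 0.108), although the difference of Retnlb itself stayed at 5.43. The bactericidal lectin gene Reg3g differed by 0.87 ± 0.20 SE (adjusted p = 0.127). Lcn2, an iron-scavenging protein gene that inflamed epithelium expresses strongly, stayed under the array medians on all arrays, at 3.08 to 3.33 in controls and 3.51 to 3.75 in mutants. Of these 20 genes, 18 had a higher mean in mutants, against 46.7% of all genes. The list was chosen with earlier results of these data known, so the count is a description only. Any relation of these genes to the difference of Duoxa2 was not tested.

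Leukocyte transcripts had higher mutant means, as the phagocyte subunits did. Of 10 pan-leukocyte markers, 10 had a higher mean in mutants, against 46.7% of all genes. At an unadjusted p under 0.05, 6 were higher, against 5.24% of all genes. Limma called 0 of these markers, and the median difference of the markers was 0.52. Their summed linear signal was 2541, 1738 and 1661 in controls and 2723, 3087 and 2821 in mutants. Control 1 stood nearest the mutants in this sum, and was the highest control in Rac2, Ncf1, Ncf4 and Cyba, whereas for Cybb the highest control was control 2. Laptm5, a lysosomal protein of blood cells, differed by 0.96 ± 0.18 SE (adjusted p = 0.0762) and Ptprc, which encodes the common leukocyte antigen, by 0.62 ± 0.19 SE (adjusted p = 0.243). Their part in the differences of Cyba, Cybb, Ncf1 and Ncf4 was not tested.

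**Figure D3:**
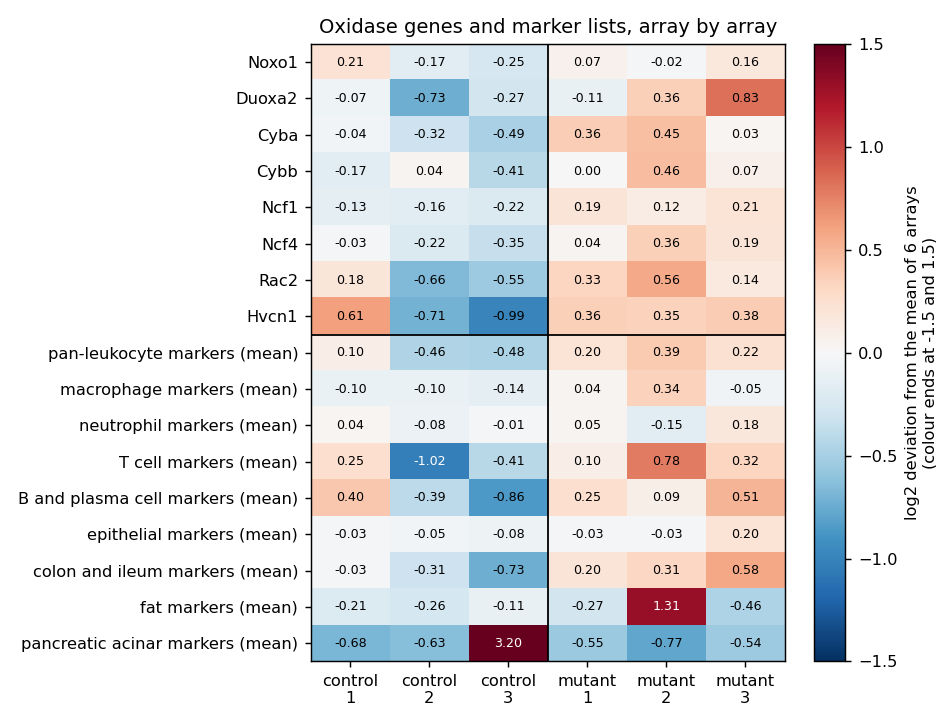
Deviation of each array (columns) from the mean of the 6 arrays in log2, for 8 oxidase genes (upper rows) and for the mean of each marker list (lower rows). Pan-leukocyte markers deviate by -0.46 and -0.48 in controls 2 and 3 and by 0.10 in control 1, fat markers by 1.31 in mutant 2 and acinar markers by 3.20 in control 3.

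Of the neutrophil, macrophage and eosinophil lists, only that of macrophages had most of its markers above the array medians. B and plasma cell markers, taken up below, had 7 of 8 above the median probe set of every array. Most neutrophil markers were at or near background, with 7 of 10 under the median probe set of every array. The list had a summed signal of 125 to 136 in controls and 124 to 176 in mutants, and 0 at an unadjusted p under 0.05 (0 called by limma). Mmp9, 1 of 2 above the median probe set of every array, made up 29.3% of the sum. It read 4.83 to 5.25 in controls and 5.15 to 6.15 in mutants. The defining genes Cxcr2, Camp and S100a9 were among the 7. Macrophage markers had 11 of 13 above the control mean, 4 higher and 1 lower at an unadjusted p under 0.05 and 0 called, with a median difference of 0.28. Over all genes, 46.7% had a higher mutant mean, and 5.24% were higher and 6.85% lower at an unadjusted p under 0.05. Csf1r, the macrophage growth factor receptor, read 9.42, 9.40 and 9.49 in controls and 9.93, 10.01 and 9.56 in mutants (difference 0.40 ± 0.13 SE, adjusted p = 0.280). Cd14 had the largest difference of the list, with groups apart (0.60 ± 0.19 SE, adjusted p = 0.265). The lysozyme gene Lyz2 differed by -0.35 ± 0.11 SE (adjusted p = 0.259). The mean log2 signal of the list was 6.83 to 6.87 in controls and 6.92 to 7.31 in mutants, while its summed linear signal, of which Lyz2 made up 51.1%, was 4624 to 5078 and 4312 to 4979. Eosinophil markers had 4 of 5 under the median probe set of every array, 1 at an unadjusted p under 0.05 and 0 called by limma.

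Lymphocyte markers had higher mutant means as well, with list means and sums that overlapped between groups. In 2 of 10 T cell markers the groups were apart, Itgae (difference 0.87 ± 0.21 SE, limma adjusted p = 0.154) and Ccl5 (1.51 ± 0.49 SE, 0.270). So they were in 2 of 8 B and plasma cell markers, Sdc1 (0.87 ± 0.17 SE, 0.0798) and Tnfrsf17 (0.28 ± 0.10 SE, 0.319). Over all genes, 6.93% had groups apart with mutants higher, 46.7% had a higher mutant mean, and 5.24% were higher at an unadjusted p under 0.05. T cell markers had 10 of 10 above the control mean, 6 at an unadjusted p under 0.05 and 0 called by limma, with summed signals of 4141, 1167 and 2213 in controls and 3500, 7264 and 4800 in mutants. B and plasma cell markers had 8 of 8 above the control mean, 2 at an unadjusted p under 0.05 and 0 called, with summed signals of 5389, 5617 and 3663 in controls and 6459, 4800 and 8012 in mutants, of which Jchain, the joining chain gene of secreted immunoglobulins, made up 78.4%. The mean log2 signal was 5.90 to 7.17 in controls and 7.02 to 7.70 in mutants for T cells, and 6.23 to 7.49 and 7.18 to 7.60 for B and plasma cells. For Hvcn1, which B cells express, control 1 was high along with the B cell receptor component gene Cd79b, at 6.63 against 5.08 and 4.87 in controls 2 and 3. Smooth muscle and vessel markers had 0 of 9 at an unadjusted p under 0.05 and a median difference of 0.02. The part of these cells in the oxidase differences was not tested.

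Epithelial oxidases are known to vary in level along the gut, and markers of ileum and colon are given beside them. Of 9 measured, 8 had a higher mutant mean, against 46.7% of all genes. The 1 called higher was Mptx1, which encodes a pentraxin (difference 0.73 ± 0.12 SE, adjusted p = 0.0496). Mptx1 was already bright in controls, at 11.23, 11.49 and 11.40 against 12.22, 12.14 and 11.95 in mutants. It made up 84% of the summed linear signal of the list. The mean log2 signal of the list was 4.30 to 5.0 in controls and 5.23 to 5.61 in mutants, but the median difference of its genes was 0.11. Fabp6 (3.40) and Slc10a2 (1.96) had the largest differences. The call of Mptx1 was lost whichever single array was left out (adjusted p = 0.0538 to 0.224) and without control 3 and mutant 2 together (adjusted p = 0.484). It was also lost with the replicate block (adjusted p = 0.117) and with low values of all genes raised to the 20th percentile (adjusted p = 0.151). In both settings the difference of Mptx1 stayed at 0.73. With each array centred on its median, the limma adjusted p stood at the threshold (0.05 as rounded). Fabp6, the ileal bile acid binding protein gene, read 9.15, 6.67 and 3.37 in controls and 9.57, 10.03 and 9.80 in mutants, and Slc10a2, the ileal bile acid transporter gene, 3.31, 2.93 and 3.26 against 3.99, 4.40 and 6.98. Mutant 3 was highest in Slc10a2 and in Duoxa2, whereas Fabp6 was highest in mutant 2. In mutant 1, Fabp6 lay above all controls while Duoxa2 lay within the control range. Car1, a carbonic anhydrase gene of colon, was 1 of 3 markers of this list under the median probe set of every array. The part of gut position in the oxidase differences was not tested.

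**Figure D4:**
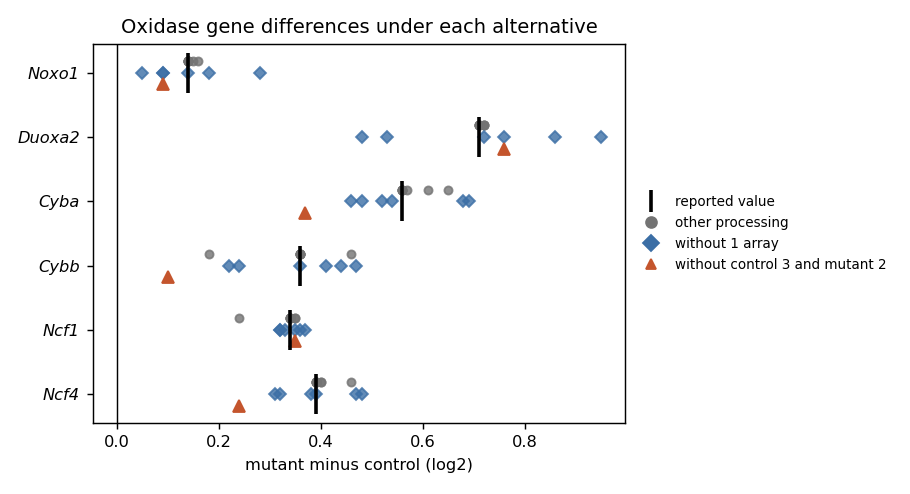
Log2 difference of each measured oxidase gene (horizontal axis) as reported (black bar), under other processing (grey), without each single array (blue) and without control 3 and mutant 2 together (orange). All values lie above 0, from 0.24 to 0.37 for Ncf1 and from 0.48 to 0.95 for Duoxa2.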

How the data were processed

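Total RNA of 6 jejunum samples was hybridised to Affymetrix arrays, 1 array per mouse, per the labels. The deposited values are log2 signals per probe set; that scale was read from their range, 1.80 to 14.5, and the authors' background correction, summarisation and normalisation are not stated by the sources here. Array medians lay between 3.93 and 3.98, so values were used as deposited. Of 45101 probe sets, 64 controls were left out. Another 34945 had 1 symbol, 932 several and 9160 none listed. No genome build is named for the arrays, and the promoter windows are from RefSeq (GRCm38.p6).

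Groups were compared with limma 3.58.1 (lmFit, eBayes; R 4.3.3) over 18193 genes, two-sided, with Benjamini-Hochberg adjustment and a threshold of 0.05, after the procedure was tested on simulated data. The replicates were individual littermates, and p-values measure the spread between them. Their number limits the precision. Genes named outside the 6 were those of the oxidase list, up to 3 of each other list with the smallest p and the most alike genes. Hnf4a and defining markers were named too, and Cd79b, Car1, Camp and S100a9 after their values were seen. The listed genes, marker lists and rules were chosen with earlier results of these data known. Planned protein comparisons were not run.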

Additional observations from a re-analysis of the deposited data

How the results depend on the processing

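Limma called 0 of the 6 measured oxidase genes under each of 16 alternatives, and each of the 6 differences stayed above 0 in the 15 fitted per gene; across these, adjusted p ranged from 0.107 to 0.664 for Ncf1 and from 0.116 to 0.737 for Cyba. The count at an unadjusted p under 0.05 was 4 as reported, 2 to 5 without 1 array (2 without mutant 2) and 1 without control 3 and mutant 2 together. With the replicate block it was 5, and 62 of all genes were called; same-numbered animals shared little (correlations of deviations 0.07, 0.07 and -0.02), so the numbers were not taken as pairs. The 96 genes called over the whole array became 5 with a floor at the 20th percentile and 150 with array weights. They became 22 to 97 without 1 array (24 and 22 without controls 2 and 3, 41 without mutant 2) and 4 without control 3 and mutant 2 together. With the floor, the differences of the 6 oxidase genes were as reported. Their limma p fell for Ncf1 alone (0.00613 to 0.000363) and rose for the others, for Duoxa2 from 0.0217 to 0.0759. The cause of these changes was not tested. Among the other oxidase genes, 0 to 1 were called without 1 array, the latter being Hvcn1 without control 1. Signs turned for 3 genes with differences near 0: Duoxa1 (-0.07, -0.03 and -0.04 without control 2, mutant 2 and mutant 3, and up to 0.08 without another array), Nox4 (-0.08 with the mean of its probe sets, -0.19 without mutant 1, up to 0.08 without mutant 3) and Rap1a (0.10 without mutant 1, down to -0.17 without mutant 3).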

Other observations

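Over the 6 arrays, the genes whose log2 values correlated most with those of Cybb, among 9095 genes brighter than the median gene, were Vim (Pearson r 0.988), which encodes the filament protein of mesenchymal cells and leukocytes, Vmp1 (0.978), Rasal2 (0.975), Mpeg1 (0.969), a pore-forming protein of macrophages, and Enc1 (0.957). All 5 were highest in mutant 2, as Cybb was. For Duoxa2, taken up after Duox2 proved to have no probe set of its own symbol, they were Sec23b (0.997), a coat protein of vesicles leaving the endoplasmic reticulum, Syt12 (0.995), Itgb3 (0.995), the immunoglobulin heavy chain gene Ighg3 (0.994) and Creld2 (0.986), a gene of endoplasmic reticulum stress. Creld2 read 8.58, 7.96 and 8.38 in controls and 8.63, 8.86 and 9.56 in mutants, and mutant 3 was highest in all 5, as in Duoxa2. These are descriptions over 6 arrays that share tissue and group structure, picked as the highest of all genes ranked.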
